A study of Mus musculus with 8 samples.

Results

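The 6 mature miRNAs enriched in liver, mmu-miR-122-5p, mmu-miR-192-5p, mmu-miR-194-5p, mmu-miR-215-5p, mmu-miR-101a-3p and mmu-miR-101b-3p, were followed in small RNA libraries of 3A cells, a nontumorigenic murine hepatocyte line, and of their extracellular vesicles (EVs). They were taken by name, 6 of the 1978 mouse miRNAs counted. All 6 had reads, and 4 of them were among the 180 miRNAs with at least 1 read in at least 2 cell and 2 EV libraries, for which tests were run. miR-215-5p and miR-101b-3p were not. The 8 libraries formed 4 groups of 2 biological replicates: cells with a control shRNA (cell shCTR), cells with an shRNA against PCBP2 (cell shPCBP2), and the EVs of each (EV shCTR and EV shPCBP2). Cells of both kinds had been infected with a retroviral shRNA vector and selected with puromycin, and were grown with EGF, IGF II, insulin and serum on collagen I. EVs were pelleted from medium conditioned for 72 h, in which the serum was EV-depleted. Each shRNA was represented by 1 stable line, so the effects of the shRNA and of the line cannot be told apart. PCBP2 mRNA was not measured by these libraries.

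Mature miRNAs guide Argonaute proteins to messenger RNAs, chiefly through the seed, bases 2 to 8 from the 5′ end. miR-122 is the most abundant miRNA of adult hepatocytes and is used as a serum marker of liver injury. miR-192, miR-194 and miR-215 are made from 2 genomic clusters, are induced by HNF1 and HNF4 factors, and are typical of liver, intestine and kidney. miR-101 is known as a repressor of the methyltransferase EZH2. PCBP2 is an RNA-binding protein with KH domains, and the study asked whether it holds miRNAs in the cell.

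The mature sequences are shown because they define which members can share targets and which can share reads. Written 5′ to 3′ from RefSeq on GRCm38.p6, with the seed in capitals, they were as follows.
mmu-miR-192-5p: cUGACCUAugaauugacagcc
mmu-miR-215-5p: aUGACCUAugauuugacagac
mmu-miR-194-5p: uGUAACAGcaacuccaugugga
mmu-miR-194-2-3p: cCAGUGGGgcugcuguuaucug
mmu-miR-101a-3p: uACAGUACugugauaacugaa
mmu-miR-101b-3p: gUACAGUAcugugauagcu
miR-192-5p and miR-215-5p shared the seed UGACCUA and differed by C1A, A12U and C20A, with the miR-192-5p base first and positions counted from its 5′ end. miR-101b-3p is annotated with its first base 1 position upstream of that of miR-101a-3p, so that the seeds as annotated are shifted by 1 base. In that alignment 17 of 18 bases were identical, and the difference was A16G in the numbering of miR-101a-3p. Reads of these 2 products could be split by the counting, and their separate levels are uncertain for that reason. miR-194-2-3p, the opposite arm of one miR-194 hairpin, is shown because its level is set against that of miR-194-5p.

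miR-194-5p has 2 hairpins with the same 5p arm, and reads cannot be assigned to one of them. The Mir194-2 copy lies at chr19:6264658-6264679 on the plus strand, outside other annotated genes, and its hairpin ends 115 bases before that of Mir192. Within the latter, miR-192-5p lies at chr19:6264857-6264877. The Mir194-1 copy lies at chr1:185313325-185313346, in an intron of the noncoding gene 2010103J01Rik, and its hairpin ends 195 bases before that of Mir215. miR-215-5p lies at chr1:185313610-185313630 in an exon of 2010103J01Rik. Both positions on chromosome 1 are opposite an intron of Iars2. miR-101a-3p lies at chr4:101346957-101346977 on the minus strand in an exon of the noncoding gene E130102H24Rik, and miR-101b-3p at chr19:29135338-29135356 in an intron of Rcl1, which encodes a factor of ribosomal RNA processing.

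The study gives AUUA or AUUG as the core of a cell-retention motif. Searched on the mature strand alone, AUUG was present in miR-192-5p from base 12, and neither AUUA nor AUUG was found in the other sequences printed above. AUUA or AUUG occurred in 8.87% of the 1679 mature mouse miRNAs whose RefSeq sequence was used here. Among the 156 tested miRNAs with such a sequence the share was 16.0%. These matches describe letters and not bound sites. The study also lists miR-192-5p among miRNAs with an export motif (hEXO), a degenerate sequence that was not searched in full here. Only the letters GGCU were searched for it. Of the sequences printed above they were found in miR-194-2-3p alone, from base 8. GGCU occurred in 13.3% of the same 1679 miRNAs.

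Each library held between 26391248 and 38166798 counted reads. Most were from the nematode spike-in cel-miR-39-3p, at 57.4 to 66.9% in cells and 97.6 to 98.4% in EVs. Mouse miRNAs had 8745848 to 12732173 reads in cells and 503070 to 687592 in EVs. Levels are given as reads per 1000000 spike-in reads unless another scale is named. A read stands for a mature molecule of nearly fixed length, and ligation efficiency differs between miRNAs, so levels of different miRNAs are compared only roughly. On the spike-in scale a lower level can reflect less material as well as less of a miRNA per vesicle or cell, and these cannot be told apart here.

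In cells miR-194-5p was the highest member. It had 19230 and 17800 reads per 1000000 spike-in reads in the shCTR replicates, and 12380 and 16260 after PCBP2 silencing. It ranked 14th to 16th among all miRNAs of a cell library and made up 93.4 to 94.4% of the reads of the 6 members. Then came miR-192-5p, at 1151 and 843.2 in shCTR and 622.0 and 773.1 in shPCBP2, followed by miR-101b-3p, at 185.9 and 207.1 in shCTR and 149.4 and 161.5 in shPCBP2. The ranges of these 3 miRNAs over the 4 cell libraries did not overlap. miR-122-5p was lower again, with 25.53 and 30.82 in shCTR and 20.18 and 26.32 in shPCBP2. miR-101a-3p was counted 82 times and 1 time with shCTR, and 39 and 87 times with shPCBP2, a 72.4-fold gap between the shCTR replicates. miR-215-5p was barely detected, with counts of 8 and 0 for shCTR, and of 0 and 5 for shPCBP2, and its range overlapped that of miR-101a-3p.

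The low rank of miR-122-5p goes against the label of the cells as far as adult hepatocytes are concerned. It took 163rd to 178th place among the 466 to 599 miRNAs detected in a cell library, with 35.7 to 41.5 reads per 1000000 mouse miRNA reads. miR-192-5p had 1090 to 1610 and miR-194-5p 22900 to 26900 on the same scale. The 2 chromosomal clusters also differed in their detected products, since miR-192-5p had 58528 reads over the 4 cell libraries and miR-215-5p, from the other cluster, had 13. The product miR-194-1-3p, from the hairpin beside Mir215, had 0 reads in all 8 libraries, whereas miR-194-2-3p, from the hairpin beside Mir192, had 792 to 1042 reads in cells. The 2 differ by G8A, U19C, C20U and G22C, with the miR-194-2-3p base first. Of the remaining arms, miR-101b-5p had 9 reads in cell shPCBP2 replicate 2 and none elsewhere, and miR-215-3p, miR-101a-5p and miR-101c had 0 in every library.

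**Figure D1:**
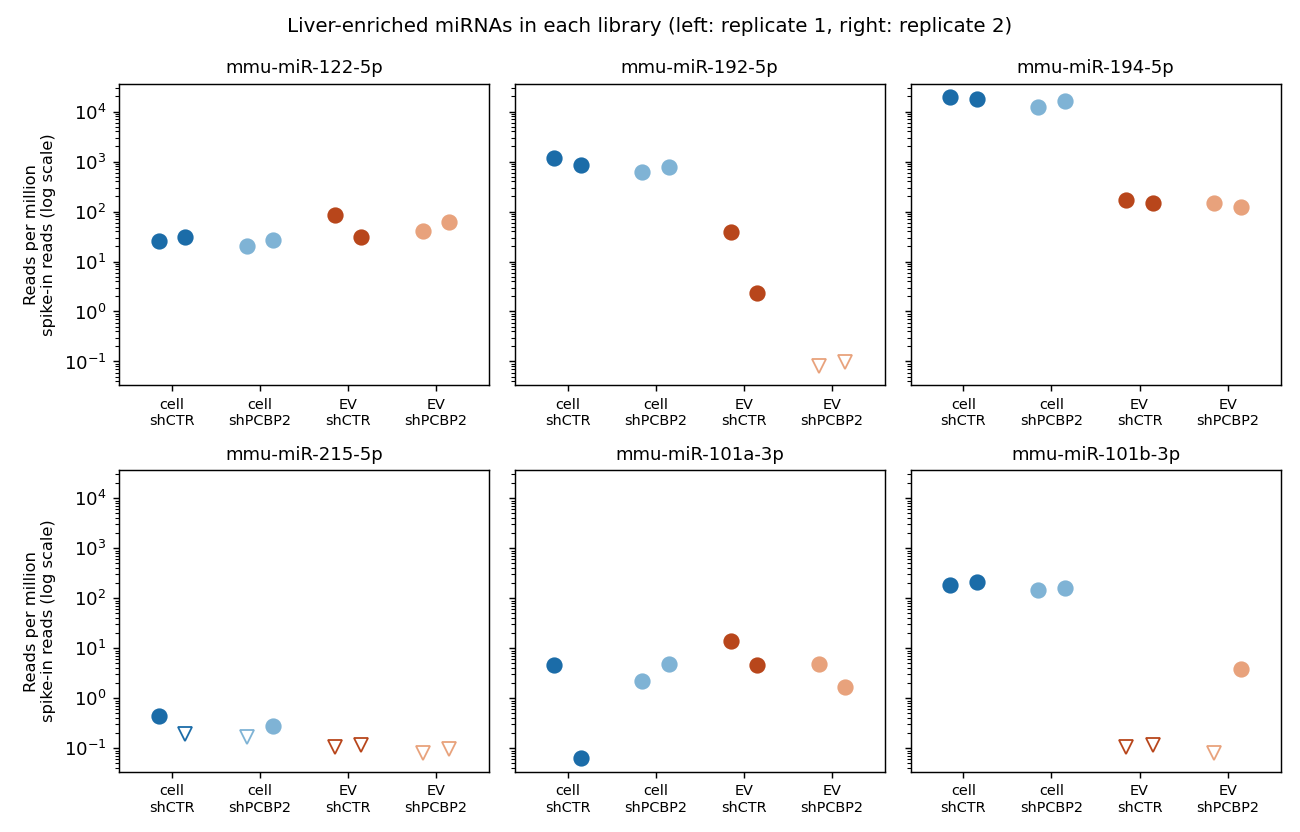
Level, in reads per 1000000 spike-in reads (log scale), of each of the 6 members in each of the 8 libraries, with replicate 1 to the left and replicate 2 to the right of each group. Filled points are measured levels and open triangles the level that 3 reads would have in a library with 0 reads; miR-194-5p is highest throughout, and miR-192-5p and miR-101b-3p are lower or undetected in EVs.

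In EVs the order was different. miR-194-5p was again the highest member, with 171.0 and 151.3 reads per 1000000 spike-in reads in the shCTR replicates, and 145.3 and 124.4 after silencing. miR-122-5p was next, with 83.81 and 30.54 in the shCTR replicates, and 41.44 and 61.56 after silencing. The 2 ranges did not overlap. miR-122-5p made up 16.2 to 32.1% of member reads in EVs against 0.124 to 0.163% in cells, and ranked 49th to 73rd among the 183 to 202 miRNAs detected in an EV library. Below it, miR-101a-3p and miR-192-5p overlapped in EV shCTR, with 14.05 and 4.533 for miR-101a-3p and 38.10 and 2.382 for miR-192-5p. miR-101b-3p had 0 reads in 3 EV libraries and 119 reads in EV shPCBP2 replicate 2. miR-215-5p had 0 reads in every EV library, which allows up to 4.36 to 5.96 reads per 1000000 mouse miRNA reads, above its highest value in cells of 0.628. At this depth its absence from EVs could therefore not be distinguished from its level in cells on that scale.

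The comparison of EVs with cells addresses how each miRNA is divided between the 2 compartments. On the spike-in scale, miR-194-5p was 115-fold lower in EVs than in cells in shCTR and 106-fold lower in shPCBP2, with log2 differences of -6.84 (SE 0.24, adjusted p = 4.16e-06) and -6.73 (SE 0.24, adjusted p = 3.66e-06; edgeR quasi-likelihood test). miR-192-5p was 49.3-fold lower in EVs in shCTR, a log2 difference of -5.62 (SE 1.41, adjusted p = 0.0171). The EV shCTR replicates differed 16.0-fold, so that this difference was 419-fold without EV shCTR replicate 1 and 26.2-fold without replicate 2. In shPCBP2, where no EV library had a read, miR-192-5p was at least 7810-fold lower (adjusted p = 0.00128), taking 3 reads per library as the limit of a count of 0. Here and below, such a bound covers counting error only and not the spread between replicates. That spread can be larger, as EV shPCBP2 replicates had 0 and 119 reads of miR-101b-3p. miR-101b-3p, left out of the tests by its counts, was at least 1760-fold lower in EVs than in cells in shCTR and 79.5-fold lower in shPCBP2. The latter value rests on the 119 reads of EV shPCBP2 replicate 2, and was 39.7-fold without EV shPCBP2 replicate 1 and at least 1950-fold without replicate 2.

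miR-122-5p and miR-101a-3p did not share this pattern. The log2 difference of miR-122-5p between EVs and cells was 1.02 (SE 0.75, adjusted p = 0.251) in shCTR and 1.15 (SE 0.75, adjusted p = 0.213) in shPCBP2, and in shCTR the EV range overlapped the cell range. The shCTR value was 0.12 without EV shCTR replicate 1 and 1.57 without replicate 2. With the newer edgeR estimate of the spread the same differences had adjusted p = 0.0304 and 0.0256, so that this call rests on how the spread is estimated. For miR-101a-3p the log2 differences were 1.99 (SE 1.77, adjusted p = 0.337) and -0.11 (SE 1.71, adjusted p = 0.951). The former ranged from 0.95 without EV shCTR replicate 1 to 7.08 without cell shCTR replicate 1, which leaves a cell library with 1 read and gave an adjusted p = 0.0457 (edgeR). Of the 4 members tested, 2 were lower in EVs in either line and none was called higher. Among all 180 tested miRNAs, 59.4% were called lower and 6.67% higher in shCTR, and 60% lower and 7.78% higher in shPCBP2, so the share of members called lower was near the background. The median log2 difference of the 4 tested members was -2.30 in shCTR and -3.42 in shPCBP2, against -4.93 and -4.90 over all tested miRNAs.

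Relative to all mouse miRNA reads, on which scale the median of all tested miRNAs was 0.06 in shCTR and 0.30 in shPCBP2, miR-122-5p was 62.4-fold and 80.1-fold higher in EVs than in cells (adjusted p = 0.000284 and 0.000214, edgeR). miR-194-5p was 3.63-fold and 2.93-fold lower on that scale (adjusted p = 5.94e-05 and 8.30e-05), and thus lower in EVs under both scalings. miR-192-5p was 1.66-fold lower in shCTR, with adjusted p = 0.689, and at least 217-fold lower in shPCBP2. miR-101a-3p was 120-fold and 35.2-fold higher, with adjusted p = 0.0453 and 0.0777. The miR-101a-3p value for shCTR rests on a cell library with 1 read.

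**Figure D2:**
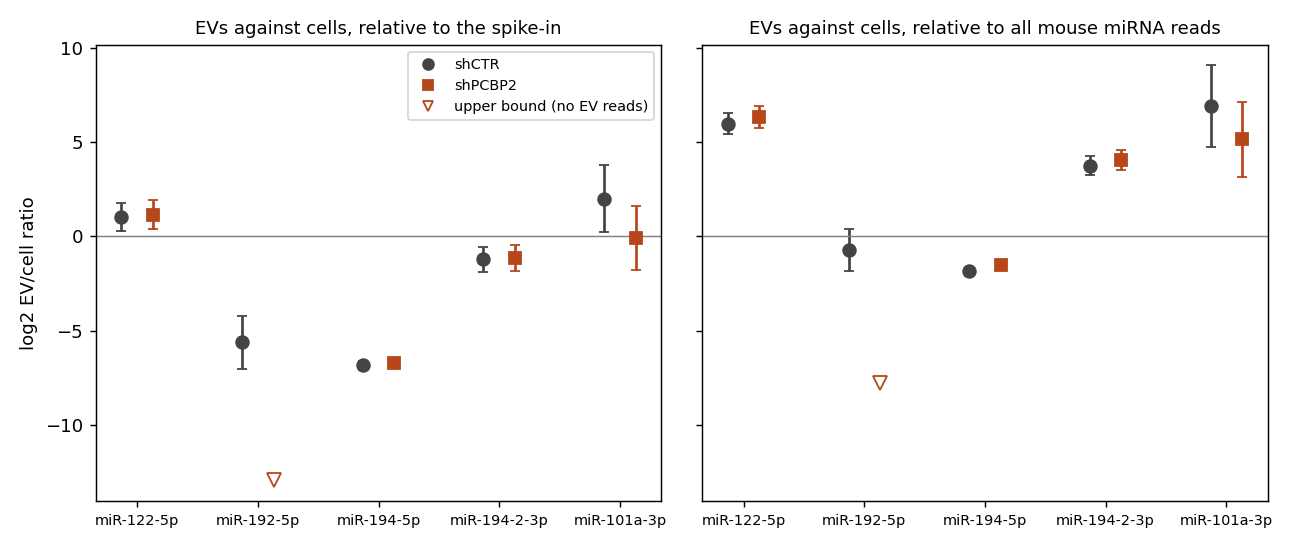
Log2 ratio of EVs to cells for the 4 tested members and miR-194-2-3p in shCTR (circles) and shPCBP2 (squares), relative to the spike-in (left) and to all mouse miRNA reads (right), with bars of 1 SE from the edgeR fit. The open triangle is the upper bound for miR-192-5p in shPCBP2, whose EV libraries had 0 reads; miR-194-5p is below 0 in both panels, whereas miR-194-2-3p lies on opposite sides of 0.

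On the spike-in scale, sums of erythroid, leukocyte and mesenchymal markers were higher in EVs than in cells. Those of endothelial and epithelial markers were not. miR-122-5p itself was not called higher on the spike-in scale. The summed level of 4 erythroid miRNAs was 7.65 to 22.6 reads per 1000000 spike-in reads in cells and 1880 to 2380 in EVs. Those tested, miR-486a-5p and miR-486b-5p, were both called higher in EVs. Their counts were nearly equal, at 155 and 155 in cell shCTR replicate 2 and 30647 and 30824 in EV shCTR replicate 1. They are therefore not taken as separate markers, and the sum may count the same product more than 1 time. The sum of 4 leukocyte miRNAs was 0.786 to 5.05 in cells and 234 to 422 in EVs, with both tested members called higher, and that of 4 mesenchymal miRNAs, all called higher in EVs, was 6.46 to 21.8 in cells and 83.9 to 169 in EVs. The summed EV levels of the 2 arms of endothelial miR-126a overlapped their cell range of 110 to 170, and the sum of 5 epithelial miRNAs, none of which was tested, was 138 to 189 in cells and 0 to 6.82 in EVs. Per 1000000 mouse miRNA reads, however, the endothelial sum was higher in EVs, at 4890 to 8800 against 174 to 228 in cells. The epithelial sum on that scale was 193 to 295 in cells and 0 to 414 in EVs. Over the 8 libraries the miRNAs with levels most like those of miR-122-5p, by Pearson's r of log2 levels, were miR-199b-3p (r = 0.895), miR-199a-3p (r = 0.893) and miR-143-3p (r = 0.859), of the mesenchymal kind. Counts of miR-199b-3p and miR-199a-3p kept a nearly fixed proportion, at 500 and 1000 in EV shCTR replicate 2 and 780 and 1560 in EV shPCBP2 replicate 1. These 2 are therefore not taken as separate matches. The 8 points share the split into cells and EVs. The EVs came from medium that contained EV-depleted serum. Whether serum or other cells contributed to the EV level of miR-122-5p was not tested.

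Ratios between members within a library depend neither on the spike-in nor on the total. In cells, miR-192-5p had 59.8 and 47.4 reads per 1000 reads of miR-194-5p in shCTR and 50.2 and 47.6 in shPCBP2. In EVs the values were 223 and 15.7 for shCTR, whereas both libraries of shPCBP2 had 0 reads, for which the limits of a count of 0 were 0.55 and 0.793. The 4 cell libraries were close together, and the EV shCTR libraries lay on either side of them. The passenger arm miR-192-3p had 94 to 157 reads in cells, or 7.40 to 10.1 per 1000 reads of miR-192-5p, and 0 in every EV library.

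miR-194-2-3p stood apart from its partner arm. It had 2.76 to 3.63 reads per 1000 reads of miR-194-5p in cells and 128 to 210 in EVs, 47.5-fold more in the EV mean (exact permutation test of 4 EV against 4 cell libraries, shCTR and shPCBP2 pooled, two-sided p = 0.0286, the smallest this design can give, and 0.0429 adjusted over the 3 ratios compared). Its counts were 809, 547, 1144 and 483 in the EV libraries against 792 to 1042 in cells. On the spike-in scale miR-194-5p was 115-fold and 106-fold lower in EVs in shCTR and shPCBP2, and miR-194-2-3p 2.35-fold and 2.23-fold lower. The log2 difference of miR-194-2-3p on that scale was -1.23 (SE 0.68, adjusted p = 0.145) in shCTR and -1.16 (SE 0.68, adjusted p = 0.171) in shPCBP2 (edgeR). Relative to all mouse miRNA reads miR-194-2-3p was 13.4-fold and 16.2-fold higher in EVs (adjusted p = 0.00164 and 0.00100, edgeR). The ratio of miR-122-5p to miR-194-5p was 1.33 to 1.73 per 1000 in cells and 202 to 495 in EVs, 233-fold more in the mean (exact permutation p = 0.0286, 0.0429 adjusted), and that of miR-192-5p to miR-194-5p gave an exact permutation p = 1.0. These 3 tests were chosen after the values were seen. Within shCTR or shPCBP2 alone, 2 libraries against 2 allow no exact permutation p below 0.333. miR-194-5p reads from either hairpin enter these ratios, whereas miR-194-2-3p comes from Mir194-2 alone.

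**Figure D3:**
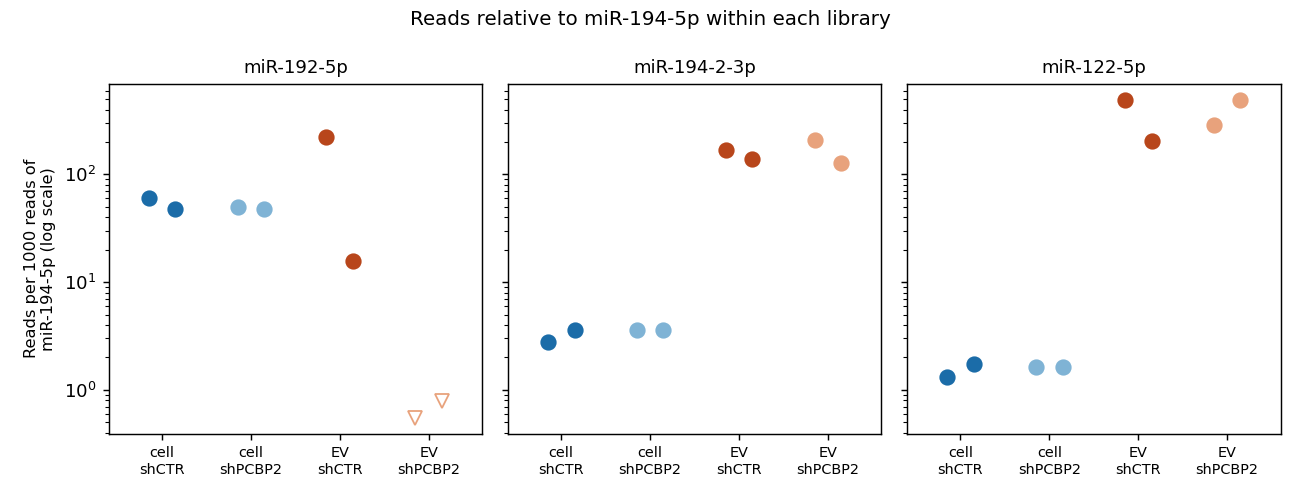
Reads of miR-192-5p, miR-194-2-3p and miR-122-5p per 1000 reads of miR-194-5p (log scale) in each of the 8 libraries, with replicate 1 to the left and replicate 2 to the right of each group. Open triangles are the limits of a count of 0; the EV libraries lie above all cell libraries for miR-194-2-3p and miR-122-5p, and on both sides of them for miR-192-5p.

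Silencing of PCBP2 was compared with shCTR in EVs, in cells, and as the change of the EV/cell ratio. In control EVs miR-192-5p had 1058 and 62 reads, whereas neither shPCBP2 EV library had any, with no overlap between the groups. The level was at least 227-fold lower in EV shPCBP2 (adjusted p = 0.0333, edgeR), at least 26.7-fold lower without EV shCTR replicate 1, and at least 427-fold lower without replicate 2. In EVs 1.67% of all tested miRNAs were called higher and 5.56% lower, and of the 4 members tested miR-192-5p alone was called. Since miR-192-5p met the minimum in EVs only through its shCTR reads, it could enter the tests only by being higher there. The call was lost with the newer edgeR estimate of the spread (adjusted p = 0.272), with only the 4 EV libraries (adjusted p = 0.186), and in 6 of the 8 fits that left out 1 library, and its adjusted p ranged from 1.87e-08 to 0.186 over 7 other settings listed with the methods.

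The EV/cell ratio of miR-192-5p was at least 159-fold lower in shPCBP2 than in shCTR, and at least 18.7-fold lower without EV shCTR replicate 1, but this did not pass the test (adjusted p = 0.0917, edgeR). With the Wald test of DESeq2 the adjusted p was 1.97e-05. The study used DESeq2 with a likelihood ratio test, which was not run here. By RT-qPCR the study reports that silencing released the loading into EVs of a set of miRNAs that includes this one. That is a higher EV/cell ratio, the opposite direction to the reads above. By CLIP the study reports that the silenced protein bound this miRNA. The cause of the difference in direction was not tested. The limit given above for EVs holds for the ratio of reads too, since miR-192-5p entered the tests only through its reads in EV shCTR. In that comparison 2.22% of all tested miRNAs and 0 of the 4 members were called. The miRNAs with levels most like those of miR-192-5p over the 8 libraries were miR-320-3p (r = 0.996), miR-138-5p (r = 0.989) and miR-1983 (r = 0.979). miR-320-3p had 3813 and 1449 reads in control EVs and 1521 and 1039 in EVs after silencing, and so was well detected where miR-192-5p was not. miR-138-5p had 226, 0, 1 and 0 reads in the EV libraries and miR-1983 had 377, 161, 1 and 84, and for all 3, EV shCTR replicate 1 was the highest EV library.

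For the other members no change passed the test. miR-194-5p, the best measured, had log2 changes of -0.26 (SE 0.18, adjusted p = 0.574) in EVs, -0.37 (SE 0.18, adjusted p = 0.502) in cells and 0.11 (SE 0.26, adjusted p = 0.992) in the EV/cell ratio. On the spike-in scale the 2 groups did not overlap in EVs or in cells. Here and elsewhere, 2 libraries against 2 allow no exact permutation p below 0.333 even without overlap. The share of all tested miRNAs whose groups did not overlap was not counted. Over all tested miRNAs the median log2 change was -0.54 in EVs and -0.49 in cells, so both changes of miR-194-5p were smaller than the median, and under the total miRNA count the EV change had the opposite sign. miR-122-5p had log2 changes of -0.15 (SE 0.74, adjusted p = 0.950) in EVs, where the groups overlapped and the sign turned under 3 other scalings, -0.28 (SE 0.74, adjusted p = 0.938) in cells, and 0.13 (SE 1.05, adjusted p = 0.992) in the ratio. miR-101a-3p had -1.50 (SE 1.74, adjusted p = 0.746) in EVs, where counts of 390 and 118 for shCTR overlapped those of 184 and 51 for shPCBP2. miR-192-5p had a log2 change of -0.52 (SE 1.16, adjusted p = 0.938) in cells, near the median of -0.49 over all tested miRNAs. Its adjusted p there was 0.0472 with the newer edgeR estimate. The groups did not overlap on the spike-in scale. Relative to all mouse miRNA reads they overlapped, and the log2 change was -0.23.

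In cells 0% of the 180 tested miRNAs were called by the edgeR test, against 25 at an unadjusted p under 0.05 and 18 called by DESeq2. For miR-122-5p, miR-192-5p and miR-101a-3p the standard errors in cells were 0.74 to 1.72 on the log2 scale, so changes of that size could not be told from the spread. Relative to all mouse miRNA reads, miR-101b-3p in cell shPCBP2 was at 0.983 of shCTR, with overlap between the groups. On the spike-in scale it was at 0.791 of shCTR without overlap. That is a log2 change of -0.34, against a median of -0.49 over all tested miRNAs. Summed with miR-101a-3p, since reads could be split between them, the level in cells was 190 and 207 with the control shRNA, and 152 and 166 after silencing. For EVs the sums were 14.0 and 4.53 with the control shRNA, and 4.90 and 5.59 after silencing. The share of miR-101a-3p in this sum was 0.0307 to 2.93% in cells, 100% in 3 EV libraries and 30.0% in EV shPCBP2 replicate 2.

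**Figure D4:**
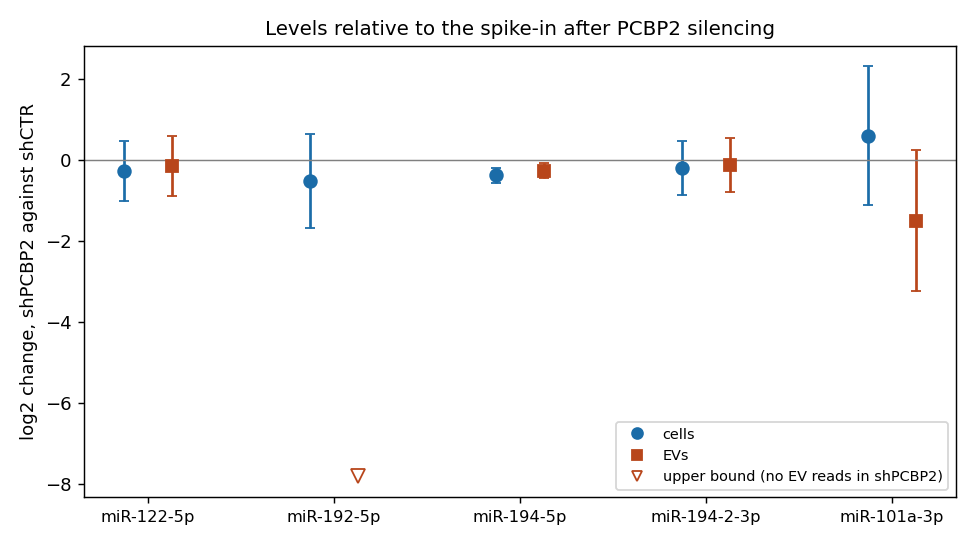
Log2 change of the 4 tested members and miR-194-2-3p in shPCBP2 against shCTR, in cells (circles) and EVs (squares) on the spike-in scale, with bars of 1 SE from the edgeR fit. The open triangle is the upper bound for miR-192-5p in EVs, where both shPCBP2 libraries had 0 reads; the remaining changes lie within -1.50 and 0.60.

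A list of 7 other miRNAs of liver, 5 of them tested, had 0 calls after silencing in EVs, in cells and in the ratio. Few of all 180 tested miRNAs were called either: 1.67% higher and 5.56% lower in EVs, 0% in cells and 2.22% in the ratio. Between EVs and cells, 4 were called lower in shCTR, and 3 lower and 1 higher in shPCBP2. The shares over all tested miRNAs were 59.4% lower and 6.67% higher in shCTR, and 60% lower and 7.78% higher in shPCBP2. The 1 called higher was miR-148a-3p, with 7 and 32 reads in cell shPCBP2 and 964 and 620 in EV shPCBP2. Its log2 difference there was 4.39 (SE 1.09, adjusted p = 0.0113, edgeR). With shCTR its counts were 75 and 42 for cells, and 548 and 650 for EVs (log2 difference 2.70, SE 1.00, adjusted p = 0.0535), so that the 2 lines fell on either side of the threshold. The difference between them was 1.69 (SE 1.35, adjusted p = 0.992). miR-802-5p, a miRNA of liver and pancreas, had at most 8 reads in cells and 0 in EVs.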

How the data were processed

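Small RNA of 3A cells and their EVs was measured in 8 libraries. The authors trimmed adapters, filtered short and low-quality reads, aligned the forward reads with mirPRo and NovoAlign to miRBase hairpins plus the spike-in, and deposited raw counts of reads per mature miRNA, not normalized. Groups and replicate numbers came from the sample titles; sample descriptions number the shPCBP2 replicates differently. The members, lists and tests were chosen with earlier results of these data known.

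Here edgeR 4.0.16 (R 4.3.3) fitted all 8 libraries with 1 mean per group and library sizes proportional to the cel-miR-39-3p count, for miRNAs with at least 1 read in at least 2 cell and 2 EV libraries (180 of 1978), a prior count of 0.125 and Benjamini-Hochberg adjustment over the 180. Residual degrees of freedom were 4 and prior ones 2.10, at a common dispersion of 0.693, and standard errors were derived from F. edgeR offers an older and a newer estimate of the spread, which had not been specified. Both were run, and the older was taken as the main one after both results had been seen, partly because it matched the earlier processing. The choice decides several calls, which are given with both.

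The 17 other settings were 8 alternatives (TMM factors, size factors by median of ratios or the total miRNA count as scaling, no filter, at least 10 counts in every library, DESeq2 1.42.0, the replicate number as a term, and only the 4 libraries compared), 8 fits without 1 library and the newer estimate, added later. A count of 0 was taken to allow 3 counts, which covers counting error only, as reads carry no molecular identifiers here. Named miRNAs are the 6 members, their other arms, 7 other miRNAs of liver, and for miR-122-5p and miR-192-5p the 3 miRNAs with the highest Pearson correlation of log2 levels. Correlations of same-numbered replicates between groups were -0.077 to 0.09, so the numbers were not taken as pairs.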

Additional observations from a re-analysis of the deposited data

Results flagged for a closer look

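miR-101b-3p, which its low EV counts left out of the tests, had 119 reads in EV shPCBP2 replicate 2 and 0 in EV shPCBP2 replicate 1 and in both EV shCTR libraries. It stands out as reads in data outside the tested miRNAs, above the level in the control EVs, and is seen in 1 of 2 replicates.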

How the results depend on the processing

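For the change of the EV/cell ratio, 1 member (miR-192-5p) was called by DESeq2, and 0 to 1 when 1 library was left out. Over all miRNAs the main count of 4 became 13 with TMM factors, 2 with size factors by median of ratios, 0 with at least 10 counts in every library, 14 with DESeq2, 0 with the newer edgeR estimate, and 0 to 11 without 1 library. In EVs the 1 member called became 0 with at least 10 counts in every library (miR-192-5p was then not tested), with only the 4 libraries compared, and with the newer estimate, and was 0 to 1 without 1 library. The 13 miRNAs called in EVs became 7 without a filter and with at least 10 counts, 27 with DESeq2, 1 with only the 4 libraries and with the newer estimate, and 1 to 21 without 1 library. In cells, where none was called, the counts were 5 with TMM factors, 1 with size factors by median of ratios, 3 with the total miRNA count, 8 with at least 10 counts, 18 with DESeq2, 39 with only the 4 libraries and 46 with the newer estimate, which included 1 member, miR-192-5p. The cause of these shifts was not tested. Between EVs and cells, 1 member was called in either line with at least 10 counts, and 1 in shCTR with only the 4 libraries. With TMM, median-of-ratios and total-count scaling miR-122-5p was called higher in EVs in shCTR (edgeR adjusted p = 0.00063, 0.000481 and 0.000284) and in shPCBP2 (0.000465, 0.000351 and 0.000214), and miR-101a-3p was called higher in shCTR (0.0467, 0.0492 and 0.0453), whereas the lower level of miR-192-5p in shCTR no longer passed (0.614, 0.569 and 0.689). The counts over all miRNAs in shCTR were 76 with median-of-ratios size factors, 75 with the total miRNA count and 294 without a filter, and 294 without a filter in shPCBP2.

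Under the replicate block, which rests on shared numbers only, 1 miRNA was called for the ratio and 2 in EVs, with 0 members, and miR-192-5p in EVs had a log2 change of -11.58 (edgeR adjusted p = 0.0792).

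Some small log2 changes turned sign. For miR-122-5p the ratio was -0.046 with TMM factors and ranged from -0.43 to 1.03 without 1 library. In EVs it was 0.17, 0.32 and 0.37 with TMM, median-of-ratios and total-count scaling, ranging from -0.70 to 0.75 without 1 library, and in cells 0.22, 0.13 and 0.012. For miR-194-5p the ratio was -0.10 with TMM factors and -0.069 to 0.32 without 1 library, the EV change 0.016, 0.13 and 0.22, and the cell change 0.12 and 0.033 with TMM and median-of-ratios scaling. For miR-101a-3p in shPCBP2, EVs against cells gave 4.46, 4.66 and 5.13 under these 3 scalings and -1.08 to 0.57 without 1 library, and its cell change ranged from -0.38 to 5.69.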
